A study of Rattus norvegicus with 18 samples.

Results

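RBM12 and its locus neighbour CPNE1 were followed through the RNA libraries of this study, together with LOC100910833 and RBM12B, 4 genes of the 28909 rows in the table. RBM12 and LOC100910833 were chosen by their measured values, since both were listed at 0 in every blebbistatin library and above 0 in every DMSO library. CPNE1 was added because it occupies the same locus as RBM12, and RBM12B because it is a relative of RBM12 by name. The levels of RBM12 and LOC100910833 across the treatment are therefore a description without a test. Of the 4 names, 3 matched a RefSeq symbol, and LOC100910833 did not.

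The cells were ventricular cardiomyocytes of wild-type SD (Sprague-Dawley) rats, taken 1 day after birth and cultured after a plating step that removes faster-attaching cells. They received blebbistatin, an inhibitor of myosin II motor activity, or the solvent DMSO for 0.5 h. The treatment protocol gives 25 µM, whereas the design text of the series also gives 0.25. There were 3 RNA libraries per group, and 12 chromatin samples (6 H3K9me3 immunoprecipitations and 6 inputs) are not analysed here. Nothing in the labels ties the 3 libraries of either group to separate cultures or litters. The p-values then cover the spread among these libraries, which may be technical.

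RBM12 is an RNA-binding protein with several RNA recognition motifs related to those of the splicing regulators hnRNP F and H. CPNE1 encodes copine 1, a cytosolic protein whose C2 domains bind membrane phospholipids when calcium rises. In mammals the transcripts of these 2 genes are known to start from a common promoter and to share leader exons, after which splicing leads into either coding sequence. RBM12B encodes a protein with similar RNA recognition motifs from another locus. No role is stated here for LOC100910833.

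In the RefSeq annotation of rat build GRCr8, RBM12 lay entirely inside CPNE1 and the annotated 5′ ends of both genes were 0 bases apart. That build is newer than rn6, the build named in the submitters' processing notes. The annotation was used for names, neighbours and overlaps between genes, which may differ in the gene models used for counting. The window around this common start is shown because 1 of its genes was listed at 0 after blebbistatin and the other was not. It runs from 250 bases before the start to 50 bases after it, on the minus strand at chr3:165089945-165090244 (GRCr8, RefSeq entry of Cpne1). Capitals mark the matches to 3 motifs that were searched on both strands.

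Cpne1 and Rbm12 start: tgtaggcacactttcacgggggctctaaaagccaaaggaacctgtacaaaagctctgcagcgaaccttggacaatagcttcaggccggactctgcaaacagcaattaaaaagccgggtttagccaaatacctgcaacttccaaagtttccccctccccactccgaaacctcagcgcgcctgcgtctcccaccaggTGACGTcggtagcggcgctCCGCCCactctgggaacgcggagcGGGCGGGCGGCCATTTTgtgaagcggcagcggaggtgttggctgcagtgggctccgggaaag

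The GC box, GGGCGG, matched at 3 places, beginning 36 (on the opposite strand), 12 and 8 bases before the start. The core of the cyclic AMP response element, TGACGT, matched 55 bases before the start. The core of the YY1 motif, GCCATTTT, began 3 bases before it. The last 2 GC boxes overlapped each other, and the second of these overlapped the YY1 match. Of all 33469 promoters of the same length, 33.1% held the GC box, 7.94% the TGACGT core and 1.81% the GCCATTTT core on either strand. These are letter matches and not sites shown to be bound. The window was 59% G or C, where the median of all promoters was 51.67%.

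The RNA values are CPM, gene values scaled by the authors so that each library sums to the same total. RBM12 was at 23.9 CPM in DMSO replicate 1, 24.1 CPM in DMSO replicate 2 and 20.9 CPM in DMSO replicate 3. In blebbistatin replicates 1, 2 and 3 it was listed at 0. The groups did not overlap, and the DMSO libraries lay close together. No fold change is given against a group that is listed at 0.

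LOC100910833 followed the same pattern, at 21 CPM, 20.9 CPM and 18 CPM in DMSO replicates 1, 2 and 3 and listed at 0 in all 3 blebbistatin libraries. Its CPM was 0.881, 0.867 and 0.861 times that of RBM12 in these DMSO libraries. Both rows were lowest in DMSO replicate 3, and their ratio varied little.

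CPNE1 was at 41.1, 38.6 and 38 CPM in DMSO replicates 1, 2 and 3 and at 37.1, 36.3 and 41.9 CPM in blebbistatin replicates 1, 2 and 3. The groups overlapped, and the highest library of all was blebbistatin replicate 3. After scaling between libraries with TMM factors (trimmed means of log ratios), the DMSO mean of CPNE1 was 39.9 ± 3.87 CPM and its blebbistatin mean 37.9 ± 2.93 CPM (SD, n = 3 libraries per group). This is a log2 fold change of -0.07 ± 0.13 (SE). Its 95% interval ran from -0.38 to 0.24, and the adjusted p was 0.991 from limma over all 15204 genes tested. Fold changes of this kind are on the scale of log2(CPM + 0.1). Without DMSO replicate 1 the log2 fold change of CPNE1 was 0.0073.

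RBM12B, the relative outside the locus, was at 5.74, 8.82 and 9.78 CPM in DMSO replicates 1, 2 and 3 and at 8.57, 9.09 and 7.54 CPM in blebbistatin replicates 1, 2 and 3. The groups overlapped, with DMSO replicate 1 lowest and DMSO replicate 3 highest. Scaled levels were 8.15 ± 1.76 and 8.29 ± 0.84 CPM (SD, n = 3 libraries per group). The log2 fold change came to 0.043 ± 0.21 (SE), with a 95% interval of -0.45 to 0.54 and a limma adjusted p of 0.991. It was -0.14 without DMSO replicate 1 and -0.027 without blebbistatin replicate 2.

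Across all genes limma called 3 of 15204 at an adjusted p under 0.05, or 0.0197%, and 231 had an unadjusted p under 0.05. The latter number was 925 without DMSO replicate 3 and 135 without blebbistatin replicate 3. RBM12 and LOC100910833 were 2 of the 3 genes called, so the 0.0197% includes both. Nothing is read from their calls, since their zeros with blebbistatin chose them. They passed the filter on low values only through the DMSO libraries. Neither CPNE1 nor RBM12B was called or had groups that did not overlap, a separation seen for 6.10% of the genes tested.

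**Figure D1:**
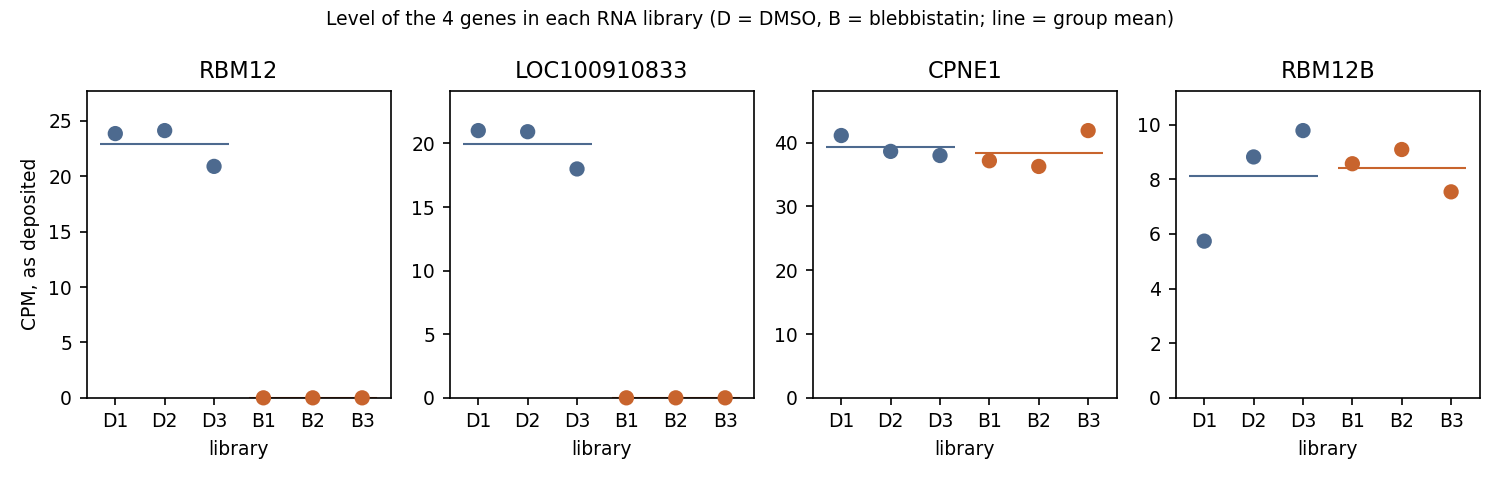
CPM as deposited (y axis) of RBM12, LOC100910833, CPNE1 and RBM12B in the 3 DMSO (D) and 3 blebbistatin (B) libraries (x axis), 1 point per library and a line at each group's mean. RBM12 lies between 20.9 and 24.1 CPM in the controls and at 0 in all treated libraries, while the groups overlap for CPNE1 and RBM12B.

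Because the 2 genes overlap, the deposited table was examined for reads that might have been listed under another gene model. Had CPNE1 stayed at its DMSO mean and its row gained the DMSO level of RBM12, its log2 fold change would have been 0.66. With the level of LOC100910833 in the same way it would have been 0.59. Gaining both would have given 1.06. The upper end of the 95% interval of CPNE1 was 0.24, which corresponds to a gain of 7.12 CPM. By comparison, RBM12 stood at 23.3 CPM and LOC100910833 at 20.3 CPM as scaled DMSO means. Over all settings tried, the highest upper end was 0.36, with the replicate number as a block. How reads were assigned to the 2 gene models was not tested. A fall of CPNE1 transcripts balanced by reads moved into its row cannot be told apart from no change of either, since each gene has 1 value per library.

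The sum of CPNE1, RBM12 and LOC100910833 was 86, 83.7 and 76.9 CPM in DMSO replicates 1, 2 and 3. It was 37.1, 36.3 and 41.9 CPM in blebbistatin replicates 1, 2 and 3, where CPNE1 was its only part above 0. The log2 ratio of the scaled sums was -1.14, or -0.74 for CPNE1 and RBM12 alone. This sum carries the values by which RBM12 and LOC100910833 were chosen and is given as a description. SPAG4, a sperm-associated antigen gene that also overlaps CPNE1 in the annotation, was listed at 0 in 5 libraries and at 1.07 CPM in DMSO replicate 3.

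**Figure D2:**
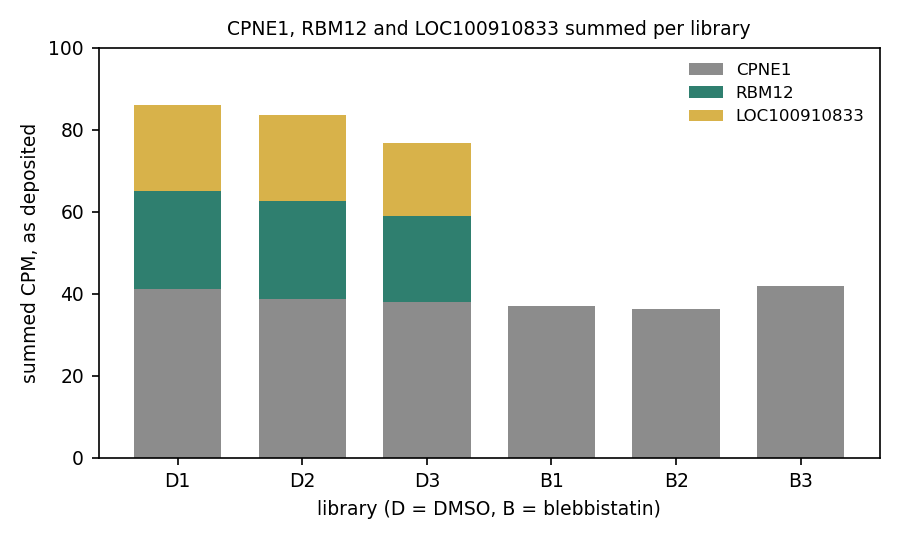
Summed CPM as deposited (y axis) of CPNE1, RBM12 and LOC100910833 in each library (x axis; D, DMSO and B, blebbistatin), as stacked bars. The sum lies between 76.9 and 86 CPM with DMSO and between 36.3 and 41.9 CPM with blebbistatin, and the CPNE1 part overlaps between the groups.

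Genes along the chromosome on both sides of CPNE1 were compared in the same way. Of 21 listed neighbours, 18 were tested and 0 were called, where 0.0197% of all genes were, and 0 had an unadjusted p under 0.05 in limma. Their median log2 fold change was 0.049, beside 0.004 over all genes tested, with 12 positive and 6 negative values between -0.30 and 0.49. FER1L4 was listed at 0 throughout, and GDF5, a growth factor gene, was at 0.146 CPM in blebbistatin replicate 3 and listed at 0 elsewhere. With SPAG4 they were the 3 neighbours that were too low to be tested.

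The gene next to the common promoter is NFS1, which encodes the cysteine desulfurase of iron-sulfur cluster assembly. It was at 8.38, 12.1 and 12.1 CPM in DMSO replicates 1, 2 and 3 and at 14.2, 12.5 and 10.4 CPM in blebbistatin replicates 1, 2 and 3. Its groups overlapped, with a log2 fold change of 0.16 ± 0.19 (SE). SCAND1, a SCAN domain gene, had the lowest p of the neighbours, with 0.37 ± 0.20 (limma adjusted p = 0.991). Next came CEP250, a centrosomal protein gene, with -0.30 ± 0.24, PHF20, a gene of a chromatin reader, with -0.22 ± 0.22, and RBM39, a splicing factor gene, with 0.27 ± 0.28. Groups that did not overlap were found for 0 of the 18, where 6.10% of all genes tested had this separation.

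**Figure D3:**
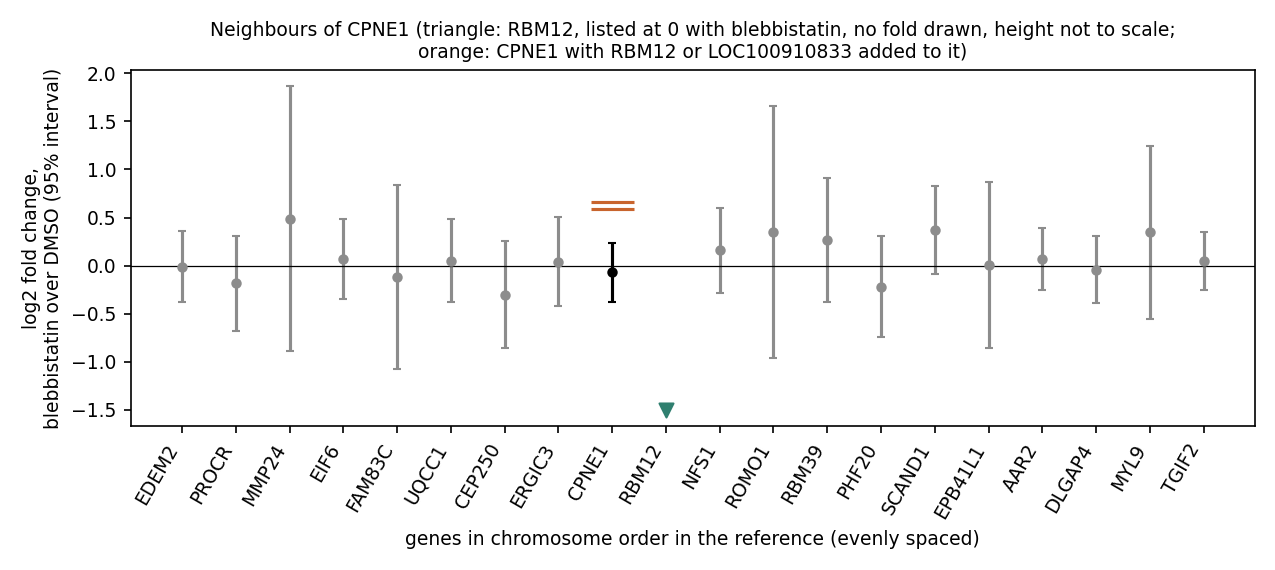
Log2 fold change of blebbistatin over DMSO with its 95% interval (y axis) for CPNE1 (black) and the 18 tested neighbours (grey) in chromosome order (x axis, evenly spaced). The triangle stands for RBM12, which is listed at 0 with blebbistatin and has no fold change. The orange lines are the values of 0.66 and 0.59 that CPNE1 would have with RBM12 or LOC100910833 added to its DMSO mean.

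The rest of the table was searched for rows that rose where RBM12 was listed at 0. Of all rows, 0 were under 1 CPM in every DMSO library and at 5 CPM or more in every blebbistatin library. Above 4 CPM there was 1, AC117058.1, with at most 0.275 CPM in DMSO and 4.17 to 11.2 CPM with blebbistatin. It has no gene symbol and is the 1 gene that limma called higher. With the replicate block, and without blebbistatin replicate 1 or blebbistatin replicate 2, limma called 0 genes higher. In 6 rows the lowest blebbistatin library exceeded the highest DMSO library by at least 18 CPM, the lowest DMSO level of LOC100910833. They were ALDH18A1, CAPNS1, NEWGENE_621351, PLN, TGM2 and TUBA1B, and none of these is a listed neighbour. This rule is an absolute difference, which rows at a high level can pass with a small relative rise. Mean CPM with DMSO and with blebbistatin was 18.7 and 99.3 for ALDH18A1 and 25.5 and 59.3 for CAPNS1. For PLN it was 812 and 991, for TGM2 344 and 380 and for TUBA1B 1284 and 1466. NEWGENE_621351 ran from 0.319 to 1448 CPM within DMSO. Groups not overlapping, in either direction, were found for 6.10% of the genes tested. AC117058.1 and these 6 were named after their values were seen. Whether any of them took up reads of RBM12 or LOC100910833 was not tested. Reads assigned to no gene are not in a table scaled over its own rows, so a loss of that kind was not tested.

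Zeros beside high values were not peculiar to RBM12. Of 11319 rows at 5 CPM or more in a library, 106 (0.936%) were listed at 0 in at least 1 other library. Each library had between 32 and 45 such zeros. YME1L1, a mitochondrial protease gene, was for example at 58.7 to 74.6 CPM in 3 libraries, at 0.132 CPM in DMSO replicate 1 and listed at 0 in blebbistatin replicates 1 and 2. MAPK7, the gene of the kinase ERK5, was listed at 0 in DMSO replicate 1 and in blebbistatin replicates 2 and 3, and at 29.1 to 40.6 CPM in the other 3 libraries. YME1L1 and MAPK7 were chosen after their values were seen. For this reason the zeros of RBM12 are described only as listed at 0.

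Among the 106 rows, 12 were listed at 0 in exactly 3 libraries. Only RBM12 and LOC100910833 had these zeros in all libraries of 1 group, while in the other 10 the zeros fell in both groups. Other rows also came in pairs with the same zeros. There were 5 pairs, made of 9 rows, whose ratio stayed within 1.2-fold over the libraries above 0. RBM12 with LOC100910833 was 1 of them, and its ratio spanned 1.02-fold. EBNA1BP2 and LOC100910750, chosen after their values were seen, were both listed at 0 in DMSO replicate 3 and in blebbistatin replicates 1 and 2. Their ratio varied more.

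**Figure D4:**
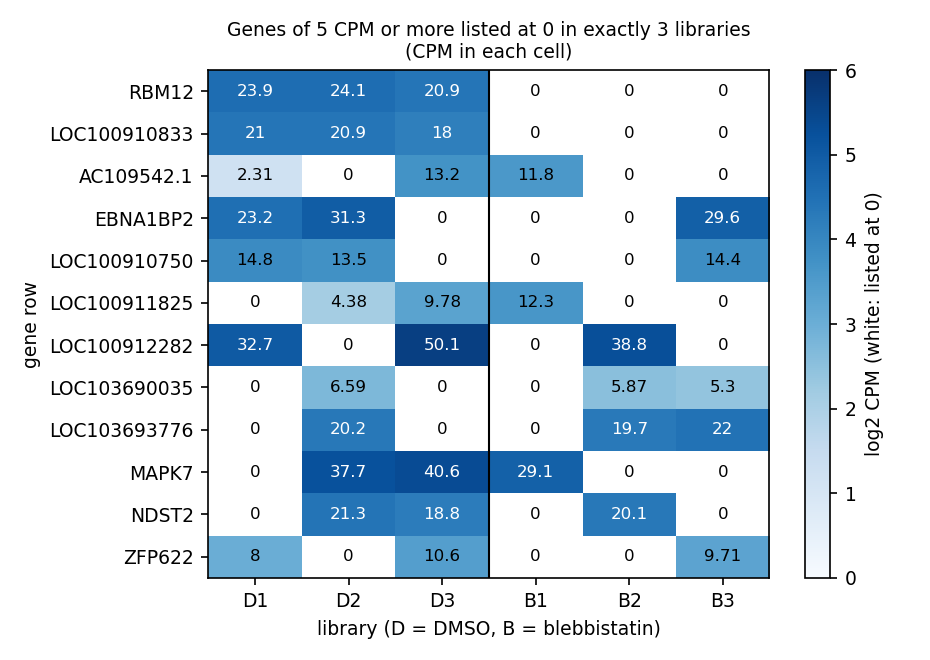
CPM as deposited, written in each cell and shaded on a log2 scale, of the 12 rows (y axis) of 5 CPM or more that are listed at 0 in exactly 3 libraries (x axis; D, DMSO and B, blebbistatin). White cells are zeros, which follow the treatment only for RBM12 and LOC100910833, the 2 rows chosen for that pattern, and fall in both groups for the other 10.

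Of the 106 rows, 33 matched a RefSeq gene, and 14 of these (42.4%) overlapped another annotated gene in GRCr8. The share was 43.4% for the 10438 matched rows of this level that were above 0 in every library. The other 73 of the 106, LOC100910833 among them, did not match, so their overlaps were not examined. Names beginning with LOC made up 56 of the 106. These shares thus leave out most rows with zeros, and whether overlap goes with zeros was not tested. RBM12 was the 1 row of the 33 that shared an annotated end with another gene (3.03%), and 33 of the 10438 others (0.316%) did so. Since RBM12 was chosen for its zeros, no link between shared ends and zeros is read from this 1 row. Where both overlapping genes were in the table, the level of the partner in the libraries with the zeros differed from case to case. CPNE1 averaged 39.2 CPM where RBM12 was above 0 and 38.4 CPM where it was listed at 0. ZSWIM8 averaged 54.5 CPM where its overlapping gene NDST2 was above 0 and 70.8 CPM where NDST2 was listed at 0. The zeros of NDST2 were in DMSO replicate 1 and in blebbistatin replicates 1 and 3. NDST2 itself averaged 20.1 CPM where it was above 0, so the difference in ZSWIM8 was 0.809 times that level. The same quotient was -0.035 for CPNE1 with RBM12. Among the other 5 of the 7 pairs it was -0.0158 for SLC35A3 with MFSD14A, 0.251 for MEPCE with PPP1R35 and -9.31 for TPI1 with SPSB2. It was 0.00553 for PIRB with TSEN34 and -0.00357 for MASTL with YME1L1. The 7 pairs are all those in which a row of the 106 and its overlapping gene were both in the table. This rule was set with earlier results of these data known. The quotients rest on deposited CPM, and the row with zeros was listed at 0 in 1 to 5 libraries. Only for RBM12 were these libraries a whole group, so the quotients do not compare like with like.

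The relatives of both genes were then described as families. Of 9 copine genes, 6 were tested and 0 were called, with 0 at an unadjusted p under 0.05 in limma, 3 positive and 3 negative fold changes and a median of -0.017. Over all genes 0.0197% were called, so a count of 0 among 6 does not set the copines apart. CPNE5 had the lowest p, with -1.06 ± 0.54 at 0.063 to 0.537 CPM in single libraries, where the SE is wide. CPNE7 followed with 0.32 ± 0.38, CPNE3 with -0.11 ± 0.21 and CPNE2 with 0.054 ± 0.17. CPNE4 was listed at 0 in every library. CPNE6 was listed at 0 with DMSO and reached at most 0.379 CPM with blebbistatin, and CPNE9 was at 0.05 CPM in DMSO replicate 1 alone. These 3 were too low to be tested.

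Besides RBM12, 35 genes named RBM with a number were tested. Limma called 0 of them, 0 had an unadjusted p under 0.05, and 20 fold changes were positive and 15 negative. The share called over all genes was 0.0197%, so this count does not set them apart either. Their median was 0.014 and they ran from -0.27 to 0.33. RBM41, which encodes an RNA-binding protein, was the 1 gene among the 35 whose groups did not overlap, where 6.10% of all genes had this separation. It was at 22.5, 20.7 and 20 CPM in DMSO replicates 1, 2 and 3 and at 18, 18.9 and 16.9 CPM in blebbistatin replicates 1, 2 and 3. Its log2 fold change was -0.27 ± 0.14 (limma adjusted p = 0.991), so it was not called. RBM6 had -0.24 ± 0.15, RBM28 -0.19 ± 0.12 and RBM38 0.26 ± 0.19.

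The list of genes related to hnRNP F and H holds RBM12 and RBM12B. Beside RBM12, 6 members were tested, 0 were called and 0 had an unadjusted p under 0.05 in limma, with 4 positive and 2 negative fold changes and a median of 0.09, beside 0.0197% called over all genes. ESRP2, an epithelial splicing regulator gene at a low level here, had 0.86 ± 0.46. GRSF1, a gene of a mitochondrial RNA granule protein, had 0.14 ± 0.12. HNRNPH2 had -0.15 ± 0.21 and HNRNPH1 0.14 ± 0.25.

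**Figure D5:**
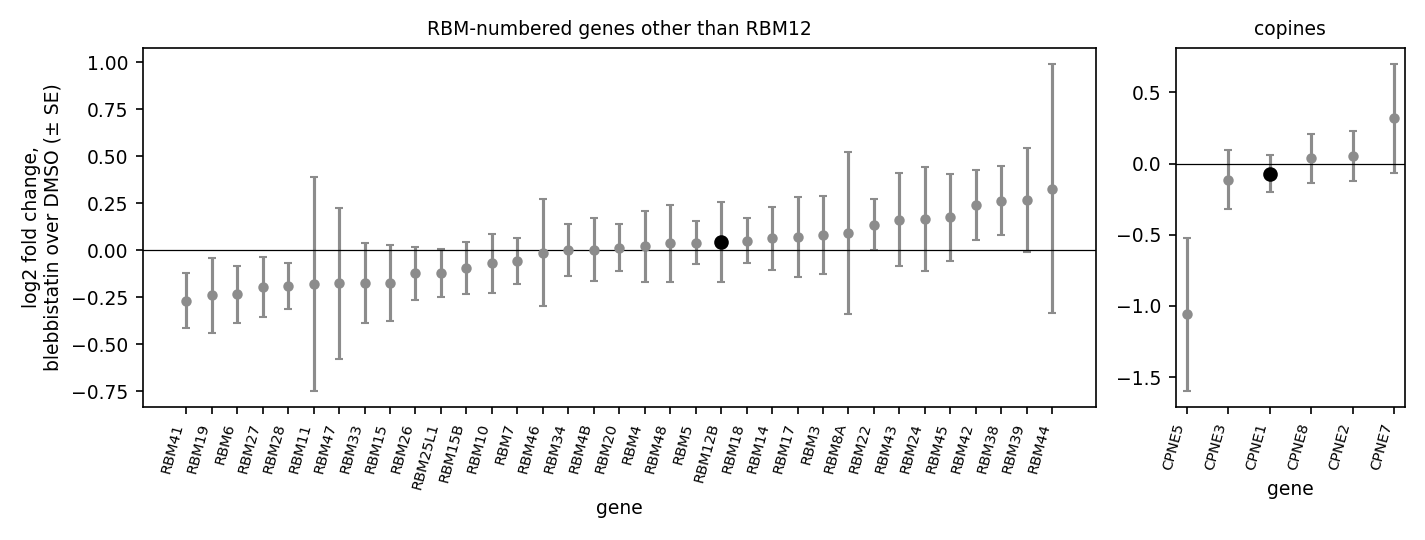
Log2 fold change of blebbistatin over DMSO ± SE (y axis) for the 35 tested RBM-numbered genes other than RBM12 (left) and the 6 tested copine genes (right), ordered by value (x axis). RBM12B and CPNE1 are drawn in black, near 0 in both panels, and 0 of the genes shown was called.

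Genes most like RBM12 over the 6 libraries were sought by Pearson correlation of TMM-scaled log2 values. The highest were LOC100910833 (r = 1 after rounding), the AP-1 subunit gene FOS (0.995), the cytokine gene LIF (0.986), the glycosyltransferase gene GCNT3 (0.986) and the polo-like kinase gene PLK2 (0.984). GCNT3 was very low, at 0.275 to 0.402 CPM with DMSO and 0.0487 to 0.0647 CPM with blebbistatin. It passed the filter on low values only through the DMSO libraries. With zeros in 1 group, likeness to RBM12 measures little beyond separation of the groups. FOS ran from 26.6 to 27.7 CPM in the DMSO libraries and from 10.3 to 11.6 CPM after blebbistatin, and was never listed at 0.

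The genes most like CPNE1 were others, YARS (0.998), ADIPOR2 (0.994), JAG2 (0.994), ZFP217 (0.992) and LAMB2 (0.99). Their groups overlapped, as those of CPNE1 did. They are the highest of 15204 genes over only 6 libraries, and no link to CPNE1 is read from them. Before scaling, YARS ran only from 189 to 204 CPM.

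The libraries differed in ways that bear on these values. DMSO replicate 1 stood apart on the first principal component (42% of the variance), at -77.4 against -3.04 to 34.6 for the others. RBM12, LOC100910833 and CPNE1 were not lowest there, while RBM12B was. Summed CPM of 10 cardiomyocyte markers was 23134 to 28596 with DMSO and 23039 to 24927 with blebbistatin, and all 10 were above 1 CPM in every library. The 8 fibroblast markers were also all above 1 CPM, with sums of 33468 to 38944 and 33522 to 38003 CPM. The cultures thus held fibroblast RNA beside that of cardiomyocytes in every library, and in bulk samples fewer cells of a type and less RNA per cell cannot be told apart. Sums of the 4 endothelial markers in the table (66.8 to 76.7 CPM) overlapped between groups as well. The 5 macrophage and leukocyte markers summed to 56 to 72.8 CPM with DMSO and 67 to 79.5 CPM with blebbistatin. The 2 red blood cell markers in the table summed to 28.3 to 71.8 CPM with DMSO and 26.1 to 30.8 CPM with blebbistatin, and these ranges overlapped too. The 2 smooth muscle markers (397 to 435 CPM) and the 2 epicardial markers (11.4 to 14.7 CPM) overlapped between groups. The part of any cell type in the values of RBM12 was not tested.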

How the data were processed

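RNA of 6 libraries was used, 3 with DMSO and 3 with blebbistatin. The authors deposited CPM values for these libraries, under a name that speaks of counts. Per the submitters' processing notes, HISAT2 2.1.0, StringTie 1.3.4, edgeR 3.20.9 and build rn6 were used in the series. Which tool made the table, the annotation, the strand setting and the treatment of reads that fit overlapping genes are not given in the sources used here, so values of RBM12, CPNE1 and LOC100910833 are uncertain in how reads were divided.

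In each library 99.1 to 99.2% of values above 0 equalled, within 0.02, a whole number of steps, 1 step being 0.0158 to 0.0168 CPM (59.6 to 63.3 M steps in all). Genes at 4 steps were the commonest in every library (253 to 426), so a step need not be 1 read and the depth in reads is unknown. All 4 genes had whole numbers of steps, for example 1443, 1439 and 1290 for RBM12 with DMSO.

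Genes entered with at least 0.162 CPM (10 steps at the median) in at least 3 libraries. limma 3.58.1 in R 4.3.3 (trend and robust settings) was fitted to log2(CPM divided by a TMM factor + 0.1). The test was two-sided, with Benjamini-Hochberg adjustment over all 15204 genes and a threshold of 0.05. TMM factors, without weights and with trims of 0.3 and 0.05, ran from 0.928 to 1.03. The steps were tested on simulated data. Per-library values are the deposited CPM, whereas means ± SD are TMM-scaled. Of the table's names, 17134 matched a RefSeq symbol. Sequence is from RefSeq (GRCr8).

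The genes and lists were chosen with earlier results of these data known. Named genes are the 4 genes, the direct neighbours, up to 4 genes per list with the lowest p, the 5 most correlated genes, and genes of 5 CPM or more listed at 0 in exactly 1 group. Others are named as chosen after their values were seen, or as pairs of a row with zeros and an overlapping gene in the table. The neighbours are the 10 measured genes on each side of CPNE1 and 16 names set by known gene order, 1 of which is not in the table. Alternatives covered scaling, filter, pseudocount, the robust setting, the replicate block and leaving out each library. Same-numbered libraries deviated from their group means with correlations of -0.29, 0.054 and -0.092.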

Additional observations from a re-analysis of the deposited data

How the results depend on the processing

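Under the alternatives, 109 values had the reported sign and the same test outcome, stayed within 1.5 times the reported count or, for the summed level, moved by less than 1 SD. This tally includes the counts of called RBM-numbered and hnRNP F/H related genes, whose 1 called gene is RBM12. Without RBM12, both counts were 0 in the reported fit. RBM12 was chosen for its zeros, so nothing is read from that part of the tally. RBM12 and LOC100910833 were among the 3 changed genes and stayed among those called under every alternative. The 3 changed genes numbered 2 with the replicate block, without a filter and with pseudocounts of 0.5 or 1 CPM. They numbered 3 with RLE or library-size scaling, at least 1 CPM in 3 libraries, a pseudocount of 0.01 CPM or robust=FALSE. Over the 6 fits that each omit a library there were 3 to 6, with 6 without DMSO replicate 1 and 6 without DMSO replicate 3. The 1 higher gene became 0 with the replicate block, without a filter, with pseudocounts of 0.5 or 1 CPM and without blebbistatin replicate 1 or blebbistatin replicate 2.

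The log2 fold change of CPNE1 lay between -0.13 and 0.0073 over the omitted libraries, and that of RBM12B between -0.14 and 0.17. The sign of CPNE1 changed without DMSO replicate 1 (0.0073). That of RBM12B changed without DMSO replicate 1 (-0.14) and without blebbistatin replicate 2 (-0.027). Limma adjusted p was 0.761 or more for CPNE1 and 0.771 or more for RBM12B over all settings. The summed level of CPNE1, RBM12 and LOC100910833 had a log2 ratio of -1.14, and -0.74 without LOC100910833, by construction of the sum. With 3 libraries per group, the replicate numbers gave no sign of pairing the libraries. The intervals limit what can be said of CPNE1 and RBM12B, since changes within them remain compatible with these libraries. They are not limits of detection at the adjusted threshold.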
